A study of Mus musculus with 6 samples.

Results

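The expression of 8 genes of the hormone-sensing luminal lineage of the mammary gland was followed in mouse mammary tumours: Esr1, Pgr, Prlr, Foxa1, Gata3, Cited1, Tnfsf11 and Greb1. The members were the listed gene symbols, matched to the array through the platform's probe annotation. Of the 8 genes, 7 had at least 1 annotated probe, with 12 probes among them, out of 45281 probes on the array. No annotated probe carried the symbol Prlr, so the prolactin receptor was not analysed here.

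All mice were 12-week-old females, of pure FVB background. The 3 PyMT/ETP tumours, also labelled PyMT/C5, carried an endotrophin transgene beside the PyMT transgene, and the 3 PyMT control tumours carried PyMT without it. PyMT is the polyomavirus middle T antigen, driven here by the mouse mammary tumour virus promoter, which is active in mammary epithelium. Endotrophin is the carboxy-terminal fragment of the collagen VI alpha 3 chain, and the promoter behind its transgene is not given in the sources used here. Total RNA was measured on Illumina bead arrays, 1 per tumour. The labels do not say that the arrays came from separate mice, so a p-value here reflects only how much these samples differ among themselves.

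In the mammary gland, estrogen and progesterone act on a subset of luminal cells that contain their receptors, and these cells signal to their neighbours through secreted factors. Estrogen receptor alpha, encoded by Esr1, is a ligand-activated transcription factor. FOXA1 opens chromatin for it, GATA3 is needed for luminal differentiation, and CITED1 is a transcriptional coactivator that binds the receptor. Progesterone receptor (Pgr) and Greb1 are estrogen-induced genes. Tnfsf11 encodes RANK ligand, which progesterone induces and which acts on neighbouring cells that carry RANK. Loss of estrogen and progesterone receptors during progression is a known feature of the PyMT model.

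The deposited values are intensities on a linear scale with a background pedestal. A probe was called above background on an array when its intensity exceeded 94.01, the level that 5% of the estimated background would exceed. On each array, 54.6% or 54.7% of all probes were above it, shares that are alike because the deposited arrays had been made equal in distribution. The arrays correlated with each other at a Pearson r of 0.978 to 0.988 over the tested probes, and their number limits the precision.

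Only Gata3 and 1 of the 4 Esr1 probes were above background in every tumour. Of the 12 member probes, 2 were above the limit on all 6 arrays, 3 on none and 7 on some. Among all probes with a gene symbol, 45.7% were above the limit on all arrays and 22.5% on none. Both probes of Pgr and 1 of the 2 probes of Greb1 were at background throughout. Foxa1, Tnfsf11, Cited1 and the other Greb1 probe crossed the limit in 4 or 5 tumours, so their values are close to the lowest that these arrays could resolve.

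**Figure D1:**
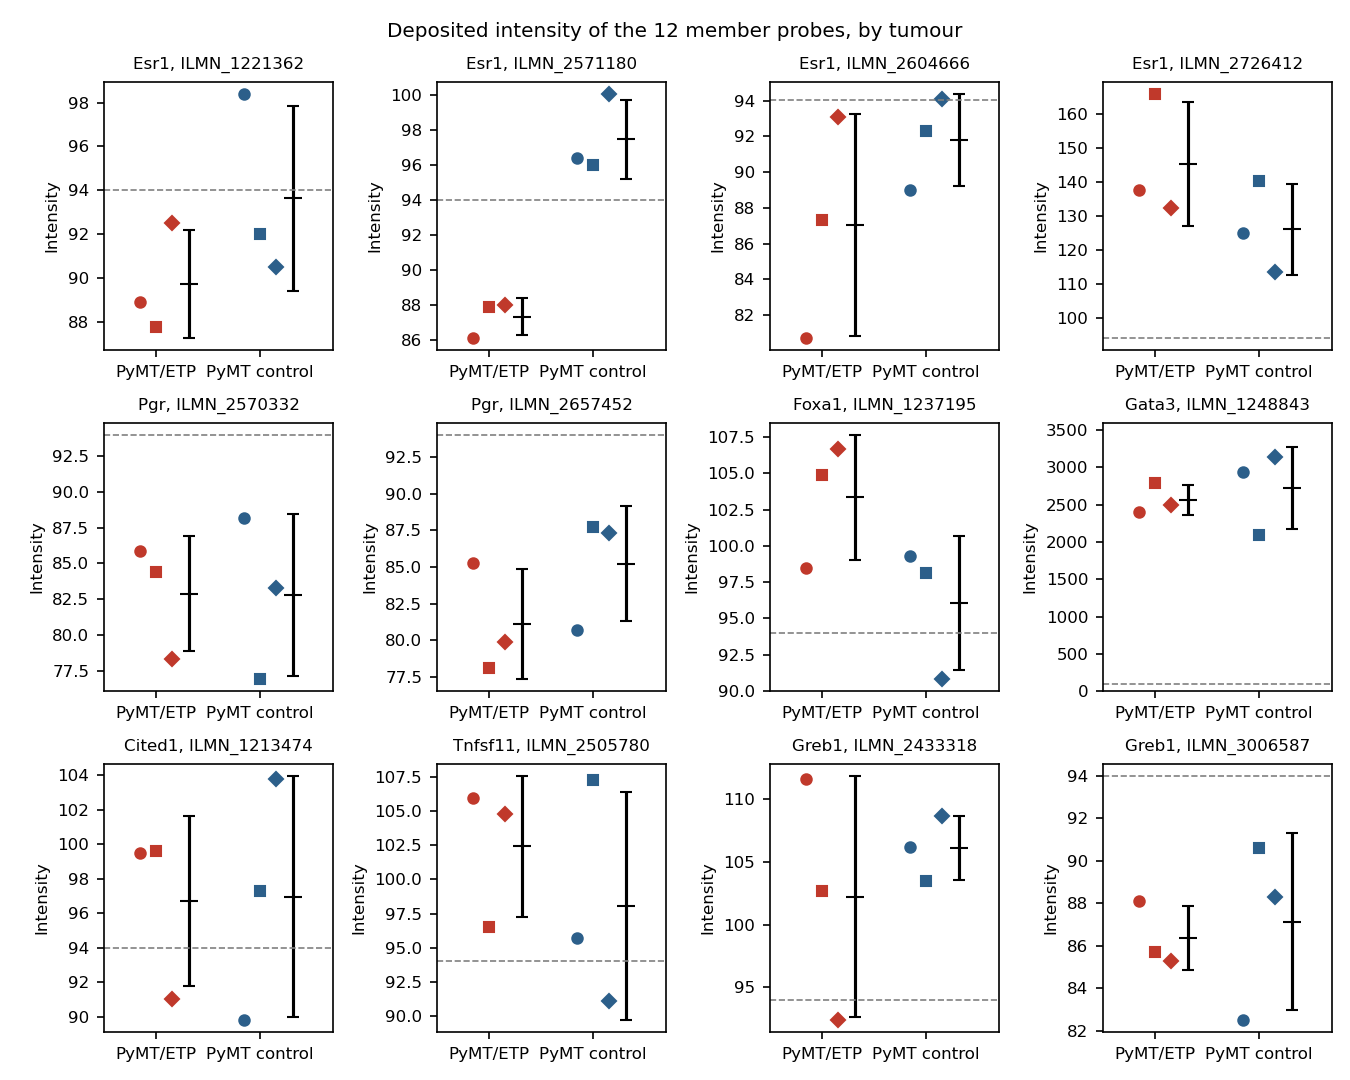
Deposited intensity (linear scale) of the 12 probes of the hormone receptor and cofactor genes. Circles, squares and diamonds are replicates 1, 2 and 3 of PyMT/ETP (red) and PyMT control (blue) tumours, black bars are means with SDs (n = 3), and the dashed line is the background limit of 94.01. The y axes differ between panels and start at 0 only for Gata3, which lies far above the limit in all 6 tumours, while both Pgr probes lie below it in all 6.

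Testing was limited to probes above the limit on 3 or more arrays and used log2 of the background-corrected intensity plus 16. This left 7 member probes of 6 genes, and 24920 probes in all. Limma with Benjamini-Hochberg adjustment over all tested probes called 0 of the 7, and it called 0 of the 24920, or 0%. The lowest adjusted p among the member probes was 1.00. At an unadjusted p under 0.05 there was 1 member probe, against 4.7% of all tested probes. The groups did not overlap for 1 member probe, against 8.88% of all tested probes. In both counts it was the Esr1 probe ILMN_2571180, which entered the test only through the PyMT control tumours, so nothing is read from them. For 3 against 3 tumours, the smallest p of an exact permutation test is 0.1.

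**Figure D2:**
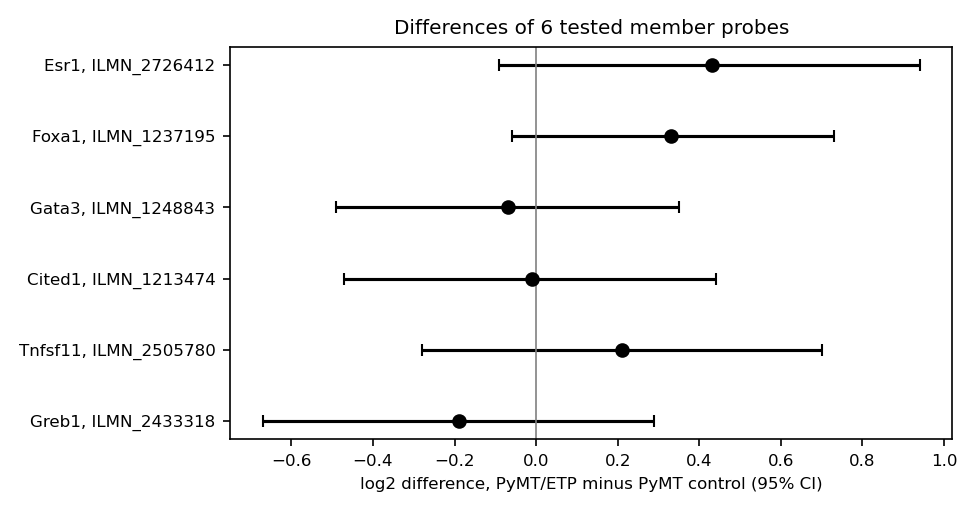
Log2 difference, PyMT/ETP minus PyMT control, of the 6 tested probes that were above background in at least 1 tumour of each group, with 95% confidence intervals from limma. All 6 intervals include 0, and none of these probes passed the test.

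The estrogen receptor gene Esr1 was represented by 4 probes, and 1 of them could be compared between the groups. Probe ILMN_2726412, annotated to the RefSeq transcript of Esr1, was the only one above background in all tumours. Its intensity was 137.5, 165.9 and 132.2 in PyMT/ETP tumours, against 124.8, 140.1 and 113.4 in PyMT control tumours. The ranges overlapped, since control replicate 2 exceeded 2 of the 3 PyMT/ETP tumours. On the log2 scale the means were 6.20 ± 0.33 in PyMT/ETP and 5.78 ± 0.35 in PyMT control tumours (SD, n = 3). The log2 difference was 0.43 (SE 0.23), a 1.34-fold difference with a 95% interval of 0.942-fold to 1.92-fold, which did not pass (limma, adjusted p = 1.00).

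Probe ILMN_2571180, annotated to a cDNA clone assigned to Esr1, was dim. Its intensity was 86.1, 87.9 and 88.0 in PyMT/ETP tumours, against 96.4, 96.0 and 100.1 in PyMT control tumours. It was above the limit in 0 of 3 PyMT/ETP tumours and in all 3 control tumours, so it entered the test only through the controls and its lack of overlap is given as a description. On the log2 scale of background-corrected intensity plus 16, its mean was 4.35 in PyMT/ETP and 4.78 in PyMT control tumours, against a limit of 4.608. With PyMT/ETP tumours raised to that limit, the probe was at least 1.13-fold higher in PyMT control tumours on this scale, and it did not pass (limma, adjusted p = 1.00). That bound takes the control values as measured and leaves out their noise. These are the values through which the probe entered the test, so nothing is read from the bound.

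The other Esr1 probes were each above the limit on 1 array, a control tumour in both cases, and were not tested. Probe ILMN_1221362 was at 88.9, 87.8 and 92.5 in PyMT/ETP tumours and at 98.4, 92.0 and 90.5 in PyMT control tumours. Probe ILMN_2604666 was at 80.7, 87.3 and 93.1 in PyMT/ETP tumours and at 89.0, 92.3 and 94.1 in PyMT control tumours. Like ILMN_2726412, it is annotated to the RefSeq transcript of Esr1. Both dim probes overlapped between the groups. Their means in PyMT/ETP against control tumours were 89.7 against 93.6 for ILMN_1221362 and 87 against 91.8 for ILMN_2604666. Only ILMN_2726412 had the higher mean in PyMT/ETP tumours, and the means of the other Esr1 probes lay near background.

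The progesterone receptor gene Pgr was not detectable on these arrays in either group. Probe ILMN_2657452 was at 85.3, 78.1 and 79.9 in PyMT/ETP tumours and at 80.7, 87.7 and 87.3 in PyMT control tumours. Probe ILMN_2570332 was at 85.9, 84.4 and 78.3 in PyMT/ETP tumours and at 88.2, 76.9 and 83.3 in PyMT control tumours. All 12 values were below the limit, and several were below 86.07, the estimated centre of the background. An intensity at background sets a bound on the signal of a probe and does not show that the transcript was absent.

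Gata3, the zinc-finger transcription factor of luminal cells, was detected far above background, and its groups differed by less than the spread between replicates. Its intensity was 2401.4, 2789.2 and 2501.5 in PyMT/ETP tumours, against 2934.9, 2099.4 and 3138.2 in PyMT control tumours. The highest and the lowest of the 6 tumours were both controls. The log2 means were 11.28 ± 0.11 in PyMT/ETP and 11.35 ± 0.32 in PyMT control tumours (SD, n = 3). The log2 difference was -0.07 (SE 0.19), with a 95% interval from -0.49 to 0.35, that is from 0.711-fold to 1.28-fold. Leaving out control replicate 3 turned the log2 difference to 0.05.

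Foxa1, the forkhead pioneer factor of estrogen receptor-positive luminal cells, was dim. Its intensity was 98.5, 104.9 and 106.7 in PyMT/ETP tumours, all above the limit, against 99.3, 98.1 and 90.8 in PyMT control tumours. Control replicate 3 was below the limit and control replicate 1 exceeded PyMT/ETP replicate 1, so the groups overlapped. The log2 difference was 0.33 (SE 0.17), with a 95% interval from -0.06 to 0.73, and did not pass (limma, adjusted p = 1.00). Cited1, the coactivator, was at 99.5, 99.6 and 91.0 in PyMT/ETP tumours and at 89.8, 97.3 and 103.8 in PyMT control tumours. In each group 1 tumour was below the limit, and the log2 difference was -0.01 (SE 0.20).

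Greb1, an estrogen-induced coregulator of the estrogen receptor, had 1 probe that could be tested. Probe ILMN_2433318 was at 111.6, 102.7 and 92.4 in PyMT/ETP tumours and at 106.2, 103.5 and 108.6 in PyMT control tumours. PyMT/ETP tumours included both the highest and the lowest of the 6 values. The log2 difference was -0.19 (SE 0.21), with a 95% interval from -0.67 to 0.29, and it was 0.03 without PyMT/ETP replicate 3, the tumour below the limit. The other probe, ILMN_3006587, was between 85.3 and 88.1 in PyMT/ETP tumours and between 82.5 and 90.6 in PyMT control tumours, below the limit throughout.

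Tnfsf11, the RANK ligand gene, was at 106.0, 96.5 and 104.8 in PyMT/ETP tumours and at 95.7, 107.3 and 91.1 in PyMT control tumours. All 3 PyMT/ETP tumours and 2 of 3 controls were above the limit, and the groups overlapped. The log2 difference was 0.21 (SE 0.22), with a 95% interval from -0.28 to 0.70, and did not pass (limma, adjusted p = 1.00). Its receptor gene Tnfrsf11a, which encodes RANK, was above background in all tumours, at 301.9, 347.2 and 284.2 in PyMT/ETP and 277.3, 304.8 and 316.7 in PyMT control tumours, with a log2 difference of 0.07 (SE 0.15). The decoy receptor gene Tnfrsf11b was at 148.0, 168.0 and 111.6 in PyMT/ETP and 134.1, 126.2 and 138.0 in PyMT control tumours, with a log2 difference of 0.13 (SE 0.29). None of the 3 genes of this signalling pair and its decoy passed the test.

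The 6 members with a tested probe gave 15 pairs, which were compared over the 6 tumours by their brightest probes. In the pair Gata3 and Tnfsf11, the tumours ranked in exactly opposite order. Pearson's r was -0.95 (exact permutation p = 0.00972, adjusted p = 0.146 over the 15 pairs) and Spearman's rho was -1 (exact permutation p = 0.00278, adjusted p = 0.0417). Without the 2 tumours farthest from the median of Gata3, r was -0.98. PyMT/ETP and control tumours both lay along this order: control replicate 2 had the lowest Gata3 and the highest Tnfsf11, and control replicate 3 the reverse. With deviations from the group means in place of the values, rearranged only within each group, r was -0.97 (exact permutation p = 0.0278, adjusted p = 0.417) and rho was -0.94 (exact permutation p = 0.0278, adjusted p = 0.417). The 36 such rearrangements cannot give a p under 0.0278, so a single pair at that floor could not pass over 15. The Tnfsf11 values spanned 91.1 to 107.3, a range that starts below the background limit. The other 14 pairs had a Pearson exact permutation p above 0.05. Esr1 had an r of 0.71 with Foxa1 (exact permutation p = 0.11, rho 0.31), which was -0.24 without the 2 tumours farthest from the median of Esr1.

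**Figure D3:**
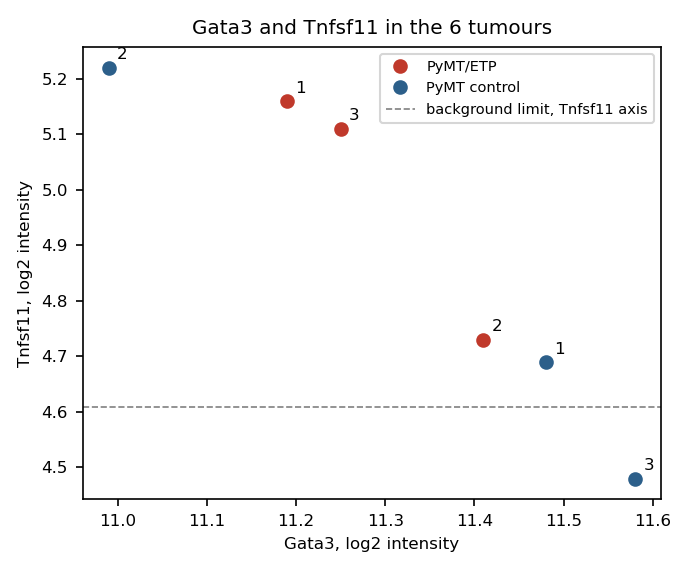
Log2 intensity (background-corrected, plus 16) of Tnfsf11 against Gata3 in 3 PyMT/ETP (red) and 3 PyMT control (blue) tumours, labelled by replicate number. The order of the 6 tumours on one axis is the reverse of that on the other, and control replicate 3 lies below the background limit for Tnfsf11 (dashed).

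The promoter sequences of these 2 genes are shown because their values ran in opposite order, and a promoter window of Greb1 as an estrogen-induced member. They are RefSeq windows of 300 bases on GRCm38.p6, from 250 bases before to 50 after an annotated start, on the strand of the gene. Gata3 is at chr2:9878551-9878850, Tnfsf11 at chr14:78307994-78308293 and Greb1 at chr12:16757190-16757489, all on the minus strand. The capitals mark the core of the estrogen response element, GGTCA or, on the other strand, TGACC.
Gata3: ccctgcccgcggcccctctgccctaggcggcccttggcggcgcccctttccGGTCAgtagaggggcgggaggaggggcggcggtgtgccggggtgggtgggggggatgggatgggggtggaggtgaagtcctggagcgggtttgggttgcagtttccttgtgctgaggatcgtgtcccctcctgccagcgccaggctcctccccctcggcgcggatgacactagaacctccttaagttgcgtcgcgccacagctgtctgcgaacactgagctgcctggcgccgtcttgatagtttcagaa
Tnfsf11: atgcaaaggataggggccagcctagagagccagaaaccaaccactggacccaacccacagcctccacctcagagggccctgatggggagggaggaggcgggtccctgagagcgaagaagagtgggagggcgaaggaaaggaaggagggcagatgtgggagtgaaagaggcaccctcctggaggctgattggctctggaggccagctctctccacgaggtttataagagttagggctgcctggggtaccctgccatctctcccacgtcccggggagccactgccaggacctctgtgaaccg
Greb1: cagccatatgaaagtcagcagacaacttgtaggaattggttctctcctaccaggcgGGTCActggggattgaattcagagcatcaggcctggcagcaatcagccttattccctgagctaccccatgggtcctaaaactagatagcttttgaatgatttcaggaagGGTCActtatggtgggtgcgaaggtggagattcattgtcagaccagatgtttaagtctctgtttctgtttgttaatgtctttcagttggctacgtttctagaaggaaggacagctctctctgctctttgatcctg

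The core was found at position -199 in the Gata3 window, at positions -194 and -85 in this Greb1 window, and nowhere in the Tnfsf11 window, counting the first base of the match from the start. The other Greb1 window, at chr12:16800837-16801136 and not shown, held it at position -88. Over the 14 windows of the 8 members, 7 windows of 5 genes held it, against 40.5% of all 32851 windows. The full palindrome GGTCANNNTGACC, which contains the core, was in none of the 14 and in 0.07% of all windows. A GATA site (AGATAA or TTATCT) was in none of the 14 and in 11.2% of all windows. A forkhead site (TGTTTAC or GTAAACA) was in 1 window each of Foxa1 and Prlr, against 3.65% of all windows. A STAT5 site (TTCNNNGAA) was in 1 window each of Esr1 and Prlr, against 8.3%. These are matches of letters, and no binding was measured.

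The wider pathways were read from 5 lists by counts and medians, beside a median log2 difference of 0.004 over all 12879 tested genes. Of all tested genes, 49.2% had a negative difference. No gene of the 5 lists passed limma's test over all genes, where 0% passed, and 4.31% of all genes had an unadjusted p under 0.05. Of 15 estrogen receptor partners and coregulators, 10 were tested, 7 with a positive and 3 with a negative difference, and the median was 0.12. Gper1, a membrane estrogen receptor, was at 122.0, 158.0 and 120.7 in PyMT/ETP tumours, against 109.6, 111.9 and 90.0 in PyMT control tumours. The groups did not overlap, as for 8.17% of all tested genes. Its log2 difference was 0.90 (SE 0.30, unadjusted p = 0.0165, adjusted p = 0.997 in limma), with control replicate 3 below background. Without background correction the Gper1 difference was 0.36. The coactivators Ncoa3 and Ncoa2 had log2 differences of 0.39 (SE 0.20) and 0.12 (SE 0.27), and the estrogen receptor beta gene Esr2 had 0.12 (SE 0.17) at the edge of background. Ncoa1 was above the limit on too few arrays to be tested, and no annotated probe carried the symbol Ncor1.

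Of 16 estrogen target genes, 13 were tested, 3 with a positive and 10 with a negative difference, and the median was -0.13, or -0.03 without PyMT/ETP replicate 1. Xbp1, a transcription factor of secretory cells, was at 16742.6, 18126.6 and 13702.4 in PyMT/ETP tumours and 13702.4, 17427.5 and 19322.8 in PyMT control tumours. The cyclin D1 gene Ccnd1 was at 3394.5, 4020.0 and 6120.3 in PyMT/ETP tumours and 6201.2, 3817.0 and 3933.4 in PyMT control tumours. Each had a log2 difference of -0.05, and both overlapped between the groups. Igfbp4, which binds insulin-like growth factors, had a log2 difference of -0.24 (SE 0.23). The other tested probes of Ccnd1 and Igfbp4 had the opposite sign. The trefoil factor gene Tff3 was at background on all arrays, and no annotated probe carried the symbols Areg or Tff1. The gene of the list with an unadjusted p under 0.05, named after its values were seen, was the luminal keratin Krt19. It was at 475.2, 416.8 and 478.1 in PyMT/ETP tumours, against 510.9, 908.3 and 847.7 in PyMT control tumours. Its log2 difference was -0.78 (SE 0.24, adjusted p = 0.997 in limma), and -0.19 without control replicates 2 and 3.

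Of 14 progesterone receptor partners and targets, 11 were tested, 5 with a positive and 6 with a negative difference, and the median was -0.02, or 0.07 without control replicates 2 and 3. Wnt4, the paracrine progesterone target, was above the limit on at most 2 arrays and was not tested, and no annotated probe carried the symbol Calca. Id4, an inhibitor of basic helix-loop-helix factors, was at 115.6, 117.0 and 96.7 in PyMT/ETP tumours, against 149.6, 117.5 and 118.6 in PyMT control tumours. The groups did not overlap, as for 8.17% of all tested genes, and their nearest values were 117.0 and 117.5. The log2 difference of -0.56 (SE 0.28) did not pass, and it was -0.22 without background correction. It was -0.30 without PyMT/ETP replicate 3 and -0.31 without control replicate 1. The receptor cochaperone gene Fkbp4 had a log2 difference of -0.21 (SE 0.18).

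The list of the prolactin receptor, JAK2 and STAT5 pathway also holds ligand genes and the growth hormone receptor gene Ghr. Of its 16 genes, 12 were tested, 4 with a positive and 8 with a negative difference, and the median was -0.06. The kinase gene Jak2 and its substrate gene Stat5a had log2 differences of 0.04 (SE 0.16) and -0.06 (SE 0.15), and the other tested Stat5a probe had the opposite sign. Among feedback inhibitors, Cish had -0.14 (SE 0.19) and Socs2 had 0.34 (SE 0.52). Socs2 was at 896.4, 972.2 and 2522.3 in PyMT/ETP tumours and at 1973.0, 933.5 and 613.4 in PyMT control tumours, so 1 tumour of each group stood above the rest. Socs1 and Stat5b were above the limit on 1 array each and were not tested. The milk protein gene Csn2, named after its values were seen, was at 862.9, 1307.9 and 1286.2 in PyMT/ETP tumours and at 1439.3, 1020.5 and 7638.0 in PyMT control tumours. Its log2 difference was -1.01 (SE 0.66), and -0.10 without control replicate 3.

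Of 16 genes of luminal identity, 12 were tested, 8 with a positive and 4 with a negative difference, and the median was 0.08. The luminal keratin gene Krt8 was at 10113.5, 10805.6 and 11208.3 in PyMT/ETP tumours, against 12696.0, 14022.0 and 11984.1 in PyMT control tumours. It did not overlap between the groups, as was so for 8.17% of all tested genes, and had a log2 difference of -0.27 (SE 0.14). Its partner Krt18 had -0.10 (SE 0.19) and the E-cadherin gene Cdh1 had 0.15 (SE 0.15). Epcam, an epithelial adhesion molecule, was at 115.6, 116.4 and 132.5 in PyMT/ETP tumours, against 107.9, 108.4 and 109.3 in PyMT control tumours. Its log2 difference was 0.41 (SE 0.16, unadjusted p = 0.0347, adjusted p = 0.997 in limma), and its groups did not overlap either. Epcam was dim, and its difference was 0.16 without background correction. The luminal transcription factor genes Spdef and Tbx3 had -0.10 (SE 0.20) and 0.24 (SE 0.21). Zfpm2, which encodes a GATA cofactor and was named after its values were seen, was at 110.8, 102.7 and 108.7 in PyMT/ETP tumours, against 95.3, 98.2 and 94.1 in PyMT control tumours. Its log2 difference of 0.51 (SE 0.15) had an unadjusted p of 0.00763 and an adjusted p of 0.997 in limma. The control values lay close to the background limit of 94.01, and the difference was 0.16 without background correction. Zfpm2 was not kept under the stricter limit. Krt8, Krt18, Epcam and Cdh1, the markers of luminal epithelium, were above background in all 6 tumours.

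**Figure D4:**
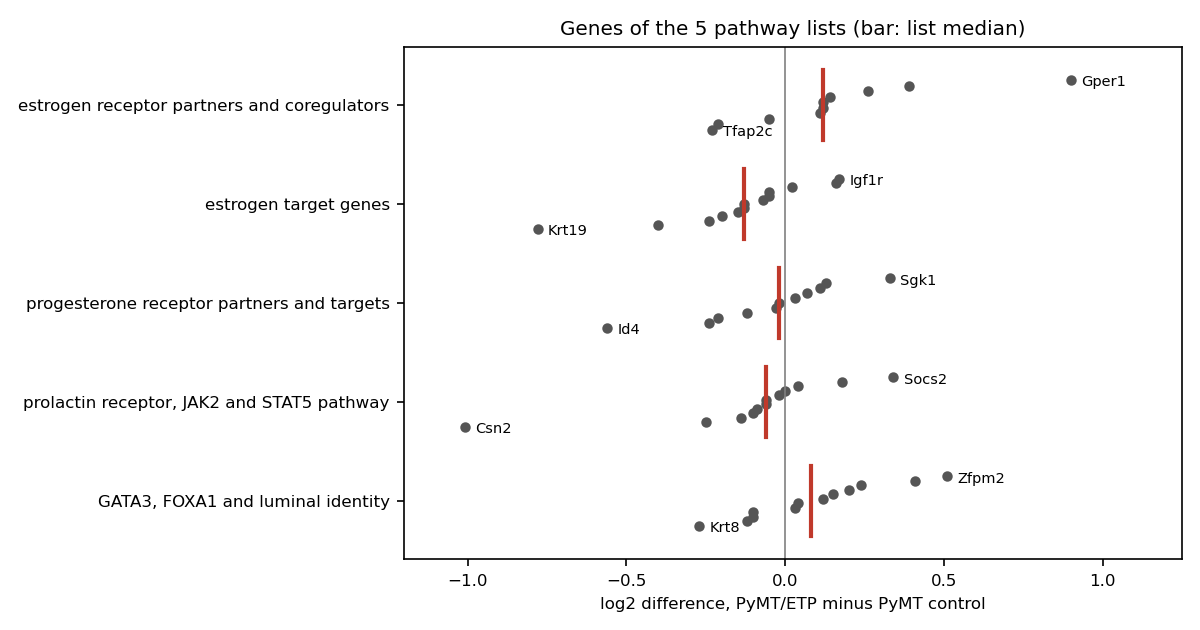
Log2 difference, PyMT/ETP minus PyMT control, of the tested genes of 5 hormone pathway lists, each by its brightest tested probe. Points are genes, red bars are list medians (from -0.13 to 0.12), and the lowest and highest gene of each list are named. No gene passed the test over all genes.

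Markers of other cell types moved between tumours beside these values. In bulk tumour RNA, fewer cells of a type and less RNA per cell cannot be told apart. Genes of skin keratinocytes and hair, of which 7 of 9 were tested, had summed intensities above background of 501 to 538 in PyMT/ETP and 683 to 3264 in PyMT control tumours, with control replicates 2 and 3 highest. Basal and myoepithelial genes (8 of 10 tested) had sums of 6858 to 11621 in PyMT/ETP and 10142 to 15870 in PyMT control tumours, with Oxtr and Cnn1 at background. Alveolar luminal genes (6 of 8) had sums of 5816 to 6637 in PyMT/ETP and 6208 to 11677 in PyMT control tumours. T cells also express Gata3 and Tnfsf11. T lymphocyte genes (7 of 9) had sums of 109 to 126 in PyMT/ETP and 96 to 151 in PyMT control tumours, with Cd8a at background. Adipocyte genes (4 of 8) had sums of 320 to 826 in PyMT/ETP and 361 to 1024 in PyMT control tumours, with Fabp4 at background. Fibroblast genes (8 of 8) had sums of 3567 to 7398 in PyMT/ETP and 4317 to 5393 in PyMT control tumours. Macrophage genes (7 of 8) had sums of 4582 to 6499 in PyMT/ETP and 4456 to 4552 in PyMT control tumours. Of these 7 genes, 1 did not overlap between the groups, against 8.17% of all tested genes. The same held for 4 of the 7 skin keratinocyte and hair genes and for 1 of the 8 basal and myoepithelial genes. Endothelial genes (8 of 8) had sums of 1611 to 1982 in PyMT/ETP and 1627 to 2063 in PyMT control tumours. The part of these cells in the values of the members was not tested. Leaving out control replicates 2 and 3 leaves 1 control tumour, whose spread cannot be measured. The log2 differences were then 0.43 for Esr1 probe ILMN_2726412, -0.20 for Gata3 and 0.18 for Foxa1. They were 0.31 for Tnfsf11, -0.19 for Greb1 and 0.32 for Cited1, which was at -0.01 with all tumours. Esr1 probe ILMN_2571180, which entered the test only through the controls, was at -0.38.

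For each tested member, the genes whose values over the 6 tumours ran most like it were read by Pearson's r among 12487 genes. They are a description, since the highest of so many coefficients over 6 tumours is high for any gene. For Gata3 they were Kat5 (0.997), Ptpn14 (0.991) and Mrpl44 (0.982). For Esr1, by probe ILMN_2726412, they were Sh3gl2 (0.989), Osgin1 (0.989) and BC005624 (0.984). For Foxa1 they were Etnk1 (0.991), Ppm1h (0.99) and Daxx (0.99). For Cited1 they were Arid1a (0.992), Zfp512b (0.992) and Olfr295 (0.99). For Tnfsf11 they were Stx5a (0.988), Mxd4 (0.987) and Nos3 (0.987). For Greb1, by probe ILMN_2433318, they were Tmem267 (0.991), Lrrc75b (0.991) and Ppp1r9a (0.989).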

How the data were processed

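Per the labels' protocols, tumour RNA was isolated with Trizol and a column clean-up, and biotinylated cRNA was hybridised to Illumina arrays. The table that the authors deposited holds 1 linear intensity per probe and tumour; its array software and normalization were not stated in the labels. Sorted values agreed between arrays to within 0.19, as after quantile normalization. A second table of values from before normalization has 24 value columns of the kind that belong to arrays, which name only a chip and a position, and it was not used here. Chip and position could not be tested as batches, nor could detection p-values be used.

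Background parameters were taken from the low end of the pooled intensities: a level of 86.07 (the mode among the lowest 60%) and an SD of 4.82 (from intensities under that mode). The normexp model of limma was applied with them, followed by an offset of 16 and log2, which understates fold changes of dim genes. The filter of 94.01 on 3 or more arrays passed 24920 probes of 12879 genes. A gene was represented by its brightest tested probe. Where no array of a group exceeded the limit, its values were raised to the limit to give a bound. Summed intensities of marker lists are over tested genes, minus the background level.

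Probes were named from the platform annotation, in which 34885 probes had 1 gene symbol, 18 several and 10378 none. Symbols were updated through the RefSeq gene table for 34807 probes. Groups were compared with limma 3.58.1 in R 4.3.3 (two-sided moderated test from lmFit and eBayes, transgene as the factor), at a Benjamini-Hochberg adjusted threshold of 0.05. The fit was tested on simulated data with known answers. The shifts simulated were larger than the differences measured for the members, so that check does not show whether differences of their size could be detected. Promoter windows were searched with Python 3.11.15.

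The members and the gene lists were chosen with earlier results of these data known. The genes named with values were the members, the first 6 genes of each pathway list in its written order (21 of 30 were tested), and the 3 genes most correlated with each tested member, leaving out symbols that are Gm with digits or end in Rik. Pairs of members were tested by permuting the arrays, and for deviations from group means only within each group, which was settled after the values were seen. Genes named outside this rule are said to be so. The alternatives tried were 17 other settings of background, offset, filter, normalization, weights, variance trend, replicate block, probe choice and arrays left out.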

Additional observations from a re-analysis of the deposited data

How the results depend on the processing

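Limma called 0 member probes and 0 genes of the pathway lists under all other settings in which they were fitted, with 0 to 2 member probes at an unadjusted p under 0.05. The settings with 2 had 1033 to 1074 of all 24920 tested probes at such a p. In the setting reported, the 1 such member probe was ILMN_2571180, so nothing is read from these counts. The lowest adjusted p of a member probe in limma was 0.574, at an offset of 1. It belonged to Esr1 probe ILMN_2571180, which entered the test only through the controls. With 1 array left out, the calls ranged from 0 to 18 over all probes and from 0 to 16 over all genes, the highest without PyMT control replicate 1. Without PyMT control replicates 2 and 3 together, 1 probe and 1 gene passed, where the lone control is assumed to vary like the other group. Over the 15 member pairs, 0 passed by Pearson's r, also without background correction. By Spearman's rho, the pair Gata3 and Tnfsf11 was under the threshold of 0.05 (exact permutation, adjusted p = 0.0417), so the 2 measures differ for it. With deviations from the group means 0 passed, where a single pair at the smallest possible p could not pass. The Gata3 difference ran from -0.25 to 0.05 with 1 array left out, that of Cited1 from -0.18 to 0.15 and that of the tested Greb1 probe from -0.39 to 0.03. Cited1 was at 0.00 with an offset of 1, 0.06 with array weights and 0.32 without control replicates 2 and 3. Esr1 probe ILMN_2726412, Foxa1 and Tnfsf11 kept their positive sign under every setting they were fitted in. They ran from 0.20 to 0.60 for the Esr1 probe, 0.11 to 0.71 for Foxa1 and 0.05 to 0.47 for Tnfsf11. Esr1 probe ILMN_2571180, which entered the test only through the controls, stayed negative, from -1.22 to -0.16. The stricter limit kept only Gata3 and Esr1 probe ILMN_2726412 among the members. With the probes of each gene averaged, Ccnd1 was at 0.08 and Esr1 at 0.00, an average that includes a probe not above background in PyMT/ETP tumours.

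Among the named list genes, leaving out 1 array gave differences of 0.00 to 0.29 for Esr2, -0.06 to 0.42 for Ncoa2, -0.19 to 0.07 for Xbp1, -0.30 to 0.18 for Ccnd1, -0.39 to 0.00 for Igfbp4, -0.04 to 0.15 for Tnfrsf11a, -0.14 to 0.48 for Tnfrsf11b, -0.04 to 0.16 for Jak2, -0.16 to 0.03 for Stat5a, -0.16 to 0.84 for Socs2, -0.27 to 0.03 for Krt18 and -0.29 to 0.05 for Spdef. Genes that kept their sign ran from -0.70 to -0.30 for Id4, 0.07 to 0.41 for Tbx3, 0.04 to 0.23 for Cdh1, -0.31 to -0.03 for Cish, -0.35 to -0.14 for Fkbp4, 0.26 to 0.58 for Ncoa3, 0.26 to 0.49 for Epcam, 0.60 to 1.07 for Gper1, -0.32 to -0.21 for Krt8, -1.07 to -0.60 for Krt19, 0.45 to 0.61 for Zfpm2 and -1.60 to -0.10 for Csn2. With array weights Xbp1 was at 0.02 and Jak2 at -0.01. Without control replicates 2 and 3 the values were -0.23 for Esr2, 0.23 for Xbp1, 0.05 for Igfbp4, 0.07 for Fkbp4, -0.19 for Jak2, 0.12 for Stat5a, 0.19 for Cish, -0.64 for Socs2 and 0.28 for Spdef. Of 85 list medians recomputed, 5 moved by over 1 SD between replicates: that of the estrogen receptor partners was 0.04 without background correction, 0.06 at an offset of 50 and 0.23 at an offset of 1, luminal identity was 0.15 without control replicate 1, and the progesterone list was 0.07 without control replicates 2 and 3. In all 5 changed sign or came to 0.00, that last one among them; the progesterone list was also at 0.05 without control replicate 2, 0.02 without PyMT/ETP replicate 3 and 0.00 at the stricter limit, and the prolactin list was at 0.00 with probes averaged. The causes were not tested. The replicate numbers carry no pairing in the labels: same-numbered arrays had deviations that correlated at -0.04, -0.03 and -0.08, and with the replicate block 0 probes and 0 genes passed. Signal over background limits Foxa1, Cited1, Greb1, Tnfsf11, Pgr and the dim Esr1 probes, whose values lie near the lowest that could be measured.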
